A study of Mus musculus with 24 samples.

Results

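The genes described here are Col5a1 and 7 other collagen genes (Col1a1, Col1a2, Col3a1, Col4a1, Col4a2, Col18a1 and Col27a1), 8 genes taken by symbol from the 55414 gene identifiers of 24 RNA sequencing libraries. The set was chosen by the lower counts of Col5a1 in female pups of Western-diet dams, so the female diet values below are a description and carry no test for these 8 genes. The libraries come from LSK cells of mouse bone marrow, that is cells without lineage markers that carry Sca-1 and Kit, the compartment of the blood-forming stem cells and multipotent progenitors. After lineage depletion, these cells were sorted from the femurs, tibiae and hips of 21-day-old pups of C57BL/6J dams. The dams ate regular chow (2018SX, the control) or a Western diet (TD.88137, meant to make them obese) in the weeks before mating, through pregnancy and while nursing. Maternal diet and pup sex gave 4 groups of 6 libraries: control females, Western-diet females, control males and Western-diet males. Each of 3 labelled batches held 2 libraries of every group. Dams and litters are not named in the labels. The p-values therefore reflect the spread among libraries, some of which may be littermates.

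Collagens are secreted proteins of intertwined chains. Types I, III and V form banded fibrils, in which type V lies mostly inside the fibril and limits its width, whereas type IV builds the sheet-like network of basement membranes. Type XVIII is a basement membrane collagen that carries heparan sulfate and releases the fragment endostatin, and type XXVII is a fibrillar collagen known from cartilage. In bone marrow, fibrillar collagens are mainly made by osteoblasts and stromal cells, and type IV by cells around vessels. Blood-forming cells are not known as their main source.

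Libraries held 38057263 to 51581968 counts assigned to genes. Kit was present in every library at 10311 to 42692 counts, and Cd34 had a median of 602 CPM (counts scaled to library size). Ly6a, which encodes Sca-1, was low at 86 to 1433 counts. Of the markers of other marrow cells, those of osteoblasts (Bglap, 291 to 1619 counts), stroma (Cxcl12, 1136 to 5383 counts) and erythroid cells (Hbb-bs, 8099 to 161853 counts) were also found in every library. Of 6 chondrocyte markers 5 had a median under 1 CPM, as did 4 of 10 stromal markers, and the platelet receptor gene Gp1bb had at most 1 count. In these bulk samples, fewer cells of a type and less RNA per cell cannot be told apart.

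Col5a1, which encodes the main chain of type V collagen (ENSMUSG00000026837, chromosome 2), differed between batches, and its values were lower with maternal Western diet in both sexes. In control females its level was 22.2 CPM in the lowest library, 29.4 at the median and 57.3 in the highest, and in Western-diet females 9.35, 13.7 and 24.8 CPM. In control males the lowest, median and highest levels were 13.6, 18.6 and 40.9 CPM, and in Western-diet males 9.50, 13.5 and 20.5 CPM. In both sexes the Western-diet libraries lay low, the highest library of every group came from batch 3, and the diet groups overlapped. Of 6 Western-diet females 5 lay below all control females, and of 6 Western-diet males 3 lay below all control males. Every Western-diet library was below the mean of the controls of its sex.

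**Figure D1:**
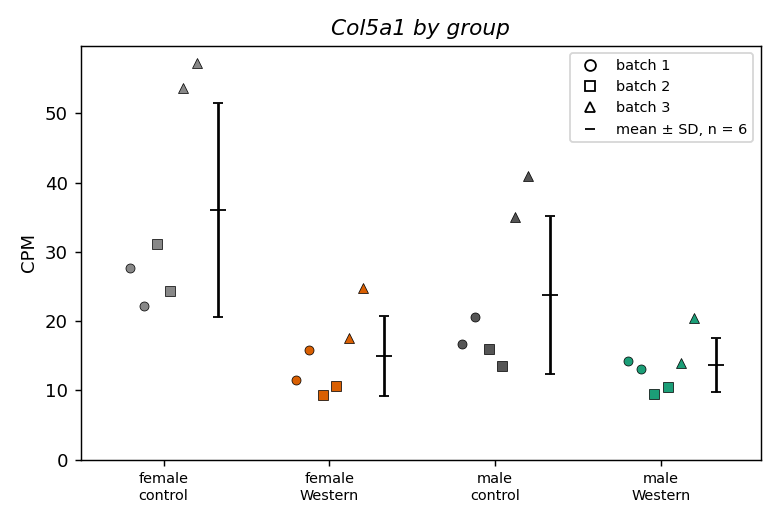
Col5a1 level in CPM (vertical axis, linear) in each library of the 4 groups of sex and maternal diet; symbols stand for the 3 batches, and bars show mean ± SD of 6 libraries. Control females averaged 36.1 CPM and Western-diet females 14.9, control males 23.8 and Western-diet males 13.6, with the batch 3 triangles highest in each control group.

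In females the mean Col5a1 level was 36.1 ± 15.4 CPM with control diet and 14.9 ± 5.76 CPM with Western diet (SD, n = 6 each). The fitted log2 fold change was -1.25 ± 0.15 (SE), or 2.39-fold lower with Western diet. Within batches 1, 2 and 3 the log2 difference was -0.87, -1.47 and -1.41, so it had one direction in each batch. Of all 19616 genes tested, 3.22% were called lower in females. Since this contrast chose the gene, no call is given here for the 8 collagens.

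The male libraries did not enter that choice and allow a test. Col5a1 averaged 23.8 ± 11.4 CPM in control males and 13.6 ± 3.87 CPM in Western-diet males (SD, n = 6 each), a log2 fold change of -0.71 ± 0.15 (SE), or 1.64-fold lower. The 95% interval of the Western-to-control ratio was 0.492 to 0.760. The within-batch log2 differences were -0.43, -0.56 and -1.16. By edgeR's quasi-likelihood test, the p was 8.22e-05 and the Benjamini-Hochberg adjusted p 0.101, which does not pass the threshold of 0.05. It passed without a filter on low counts (adjusted p = 0.00347), in DESeq2 (0.00349) and in limma-voom (0.0188), with log2 fold changes of -0.73 in each. Of the 8 collagens none was called for diet in males, against 0.0102% (2 genes) of all genes tested.

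Col5a1 also differed between batches. Its median over the 8 libraries of a batch was 16.3 CPM in batch 1, 12.1 in batch 2 and 29.9 in batch 3, so batch 3 was the highest. The largest difference between batches was 1.06 on the log2 scale (edgeR's adjusted p = 8.88e-06). Col27a1 was the other collagen of the set with a batch difference, at 1.07 (edgeR's adjusted p = 0.0100). Its batch medians were 0.994, 0.588 and 0.490 CPM, with batch 1 the highest. These are 2 of 8 genes, against 24.2% of all genes tested. The labels do not say what a batch stands for. The summed macrophage markers spanned 363 to 904 CPM in batch 1, 173 to 307 in batch 2 and 171 to 446 in batch 3. For the summed stromal markers these ranges were 288 to 652, 100 to 326 and 191 to 331 CPM. Over the 24 libraries Col27a1 had r = 0.54 with the macrophage sum and 0.55 with the stromal sum. With group and batch means removed, Col27a1 had r = -0.08 with the macrophage sum (exact permutation p = 0.941). With the stromal sum it then had r = 0.21 (exact permutation p = 0.568). Values without batch means hold no batch difference, so they cannot speak to it. The part of either cell type in the Col27a1 batch difference was not tested. Among erythroid genes, Epor also had its highest median in batch 3, at 48.0 CPM in batch 1, 38.8 in batch 2 and 82.9 in batch 3. The sum over the 8 erythroid markers had medians of 3100, 2368 and 3004 CPM. Their part in the Col5a1 batch difference was not tested.

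Levels of Col5a1 over the 24 libraries ran beside those of erythroid genes. The most similar of 12171 genes, by Pearson correlation of log2 CPM, were Sphk1 (r = 0.987), a kinase that makes sphingosine 1-phosphate, and Slc25a21 (r = 0.987), a mitochondrial carrier. Hpn, a membrane serine protease, followed at 0.980, Add2, an adducin of the red cell membrane skeleton, at 0.979, and Myh10, a nonmuscle myosin heavy chain, at 0.973. These values share diet, sex, batch and library, so they describe likeness only. Among 8 erythroid markers, r was 0.969 for Ermap, 0.963 for the erythropoietin receptor Epor, 0.962 for the transcription factor Gata1 and 0.944 for Rhag. After group and batch means were removed, r was 0.886 for Ermap, 0.850 for Epor, 0.786 for Gata1 and 0.651 for Rhag, but 0.479 for Car1, 0.202 for Klf1, 0.202 for Slc4a1 and -0.38 for Hbb-bs. The summed level of the 8 markers, in which Hbb-bs is the most abundant, had r = 0.02 and rho = 0.03 with Col5a1 on the same footing (exact permutation p = 0.942 for r, adjusted p = 0.994 over 92 pairs). The adult globin gene Hbb-bs did not run with Col5a1 (r = -0.16), and Slc4a1, the anion exchanger of red cells, had r = 0.34. Over the osteoblast markers the median r was 0.01, over the stromal ones -0.10 (0.26 with group and batch means removed), and over the 8 LSK and stem cell markers -0.60 (-0.22). The lowest of these was Mecom, a transcription factor of stem cells, at -0.83 (-0.68), which rose with Western diet in females (log2 fold change 0.55, edgeR's adjusted p = 0.0125). Its part in the Col5a1 values was not tested.

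**Figure D2:**
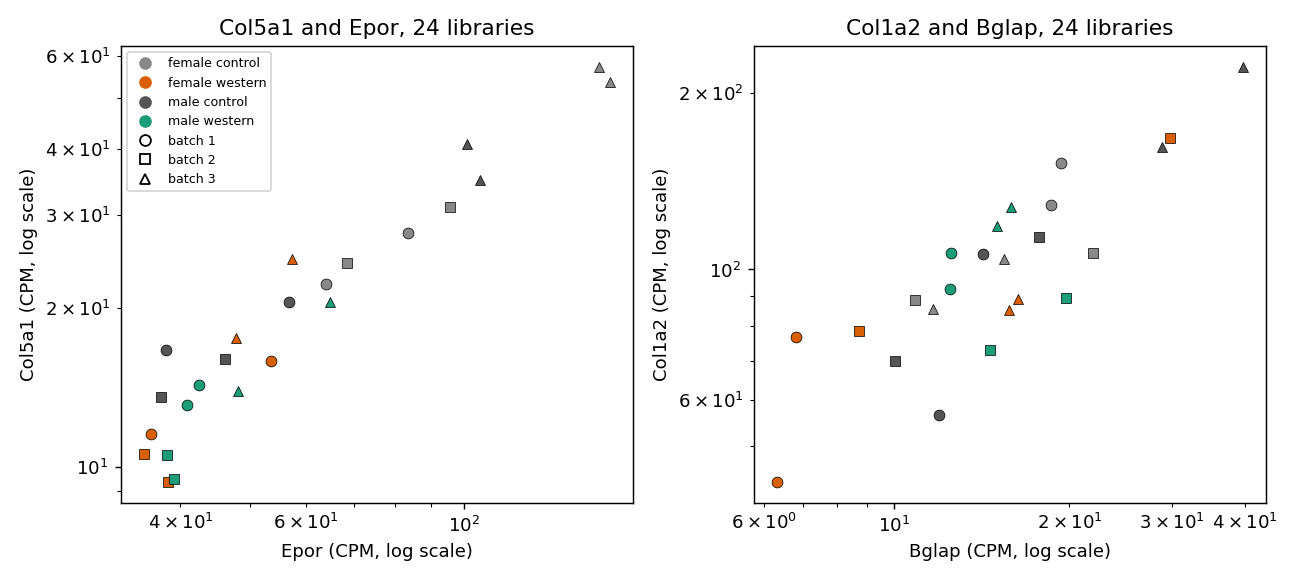
Levels in CPM on log axes in all 24 libraries, Col5a1 against Epor on the left and Col1a2 against Bglap (osteocalcin) on the right; colours stand for groups and symbols for batches. Col5a1 and Epor lie close to one line (r = 0.963), whereas the points of Col1a2 and Bglap are looser (r = 0.847).

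The erythroid markers also moved with diet. Their summed level was 2629 to 5296 CPM in control females and 996 to 2163 CPM in Western-diet females, and 2768 to 4922 CPM in control males and 1309 to 2413 CPM in Western-diet males. The diet groups did not overlap in either sex. In edgeR 7 of the 8 markers fell in females and 1, Car1, in males, and all 8 had lower values in both. Their part in the Col5a1 difference was not tested. The summed osteoblast markers, in contrast, spanned 84.8 to 191 CPM in control and 120 to 168 CPM in Western-diet females, and 136 to 229 and 146 to 180 CPM in males, with overlap in both sexes.

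The sequence before the Col5a1 start is shown because the gene ran beside Gata1 and Epor. Those of Col3a1 and Col27a1 are printed with it. The windows are the 250 bases before the RefSeq start (GRCm38.p6), all on the plus strand: chr2:27886175-27886424 for Col5a1, chr1:45311288-45311537 for Col3a1 and chr4:63215162-63215411 for Col27a1. They hold no annotated exon, unlike the windows of Col1a2, Col4a1, Col4a2 and Col18a1, which are not printed. Capitals mark GATA cores (AGATAA and AGATAG, also with T as their first letter) and CACCC-type boxes (CCNCNCCC), each searched on both strands, where adjacent matches may overlap:
Col5a1: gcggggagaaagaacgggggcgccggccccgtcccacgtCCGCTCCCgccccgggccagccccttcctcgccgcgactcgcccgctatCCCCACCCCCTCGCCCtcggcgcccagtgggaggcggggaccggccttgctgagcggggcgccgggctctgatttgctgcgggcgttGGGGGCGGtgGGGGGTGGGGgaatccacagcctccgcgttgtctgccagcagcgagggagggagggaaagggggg
Col3a1: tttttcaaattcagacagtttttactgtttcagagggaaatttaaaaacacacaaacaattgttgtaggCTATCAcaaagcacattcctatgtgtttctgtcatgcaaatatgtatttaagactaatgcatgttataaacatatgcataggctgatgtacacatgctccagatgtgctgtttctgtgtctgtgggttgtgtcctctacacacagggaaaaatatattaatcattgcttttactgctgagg
Col27a1: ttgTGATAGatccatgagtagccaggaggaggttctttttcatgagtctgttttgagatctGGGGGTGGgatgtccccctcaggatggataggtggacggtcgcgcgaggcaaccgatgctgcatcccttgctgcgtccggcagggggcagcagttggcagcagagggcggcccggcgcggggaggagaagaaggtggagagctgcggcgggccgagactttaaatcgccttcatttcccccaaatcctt

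The Col5a1 window had no GATA core, 7 CACCC-type matches and a GC content of 76.4%. Of 32841 windows of the same length in the table, 26.5% held a GATA core and 45.9% a CACCC-type box, while 2.98% held at least 7 CACCC-type matches and 3.04% had a GC content at least as high (median 52.4%). GC boxes (GGGCGG, in 32.7% of windows) occurred 2 times in Col5a1, both overlapping CACCC-type matches. The Col3a1 window was poor in GC at 35.2%, with 1 GATA core, 181 to 176 bases before the start, and 1 TATA box (TATAAA, in 12.4% of windows) at 117 to 112 bases. The Col27a1 window had a GC content of 59.6%, 1 GATA core at 247 to 242 bases, 1 CACCC-type box and 1 GC box. The lack of a GATA core was not particular to Col5a1, since the windows of Col1a2, Col4a1, Col4a2 and Col18a1 also had none. Col4a1 and Col4a2 were nearly as rich in GC, at 74.4 and 73.6%, with 2 CACCC-type matches each. Such matches describe the letters and are not binding sites shown by these data.

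Per length, the genes of type I collagen were the most abundant collagens in these libraries. Scaled to the kilobases of their annotated exons, Col1a1 had a median of 52.3 CPM per kb (range 12.2 to 144) and ranked 1 among 44 collagen genes. Col1a2 followed at 7.92 (3.49 to 17.8), Col4a2 at 2.82 (0.795 to 4.40), Col5a1 at 2.01 (1.10 to 6.75) and Col4a1 at 1.46 (0.552 to 2.74). The ranges of these last 3 overlapped widely. Col4a2 still had more counts than Col4a1 in every library, over a shorter exon length (6619 against 7464 bases). The place of Col5a1 among them varied between libraries. Col18a1 ranked 9 at 0.805, Col3a1 14 at 0.419 and Col27a1 32 at 0.0459 CPM per kb. With the longest coding transcript as the length, Col1a2 came to 18.4 and Col3a1 to 0.740, and the first 5 ranks were the same.

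Col1a1 (ENSMUSG00000001506, chromosome 11) and Col1a2 (ENSMUSG00000029661, chromosome 6) encode both kinds of chain of type I collagen, the main protein of bone. Col1a1 was 308, 389 and 669 CPM (lowest, median, highest) in control females and 81.2, 208 and 415 CPM in Western-diet females. Most Western-diet females were low, with 5 of 6 below all controls, and the log2 fold change was -0.94 ± 0.41 (SE), or 1.91-fold lower. Within batches it was -1.34, -0.31 and -1.53. In males Col1a1 spanned 79.8 to 948 CPM with control and 260 to 461 CPM with Western diet. The control males spread around all the Western-diet males, and the log2 fold change of -0.16 did not pass (edgeR's adjusted p = 0.936). It was 0.29 without control male 6 and 0.32 without batch 3.

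Col1a2 was 85.5, 105 and 152 CPM (lowest, median, highest) in control females and 43.4, 82.0 and 167 CPM in Western-diet females, a log2 fold change of -0.33. The groups overlapped, and without batch 1 the value was 0.10. In males the lowest, median and highest levels were 56.5, 110 and 221 CPM with control diet and 72.9, 99.7 and 128 CPM with Western diet. The log2 fold change was -0.22 (edgeR's adjusted p = 0.851), with a 95% interval of the ratio from 0.574 to 1.29. The gene most like Col1a2 over the 24 libraries was Bglap, which encodes osteocalcin of osteoblasts (r = 0.847). Over the 8 osteoblast markers, however, the median r was 0.37, and the lowest was -0.22 for Runx2. With group and batch means removed, Col1a2 and the summed osteoblast markers had r = 0.44 (exact permutation p = 0.298, adjusted p = 0.994).

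Both type I genes varied together within group and batch. Over 24 libraries, with group and batch means removed, Col1a1 and Col1a2 correlated at Pearson's r = 0.837 and Spearman's rho = 0.863 (exact permutation p = 0.000488 for each, the smallest possible here; adjusted p = 0.0449 over 92 pairs). Within batches r was 0.935, 0.983 and 0.776. Without the 2 libraries of the group and batch in which Col1a1 deviated most from its mean there, it was 0.797. It was the only one of the 92 pairs, 28 of collagens and 64 of a collagen and a marker, to pass. Col1a1 and Col3a1 had r = 0.845, and Col1a2 and Col3a1 r = 0.788, with an adjusted permutation p of 0.0749 for each. Library size, which all genes of a library share, is divided out of CPM, but other differences between libraries are not.

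**Figure D3:**
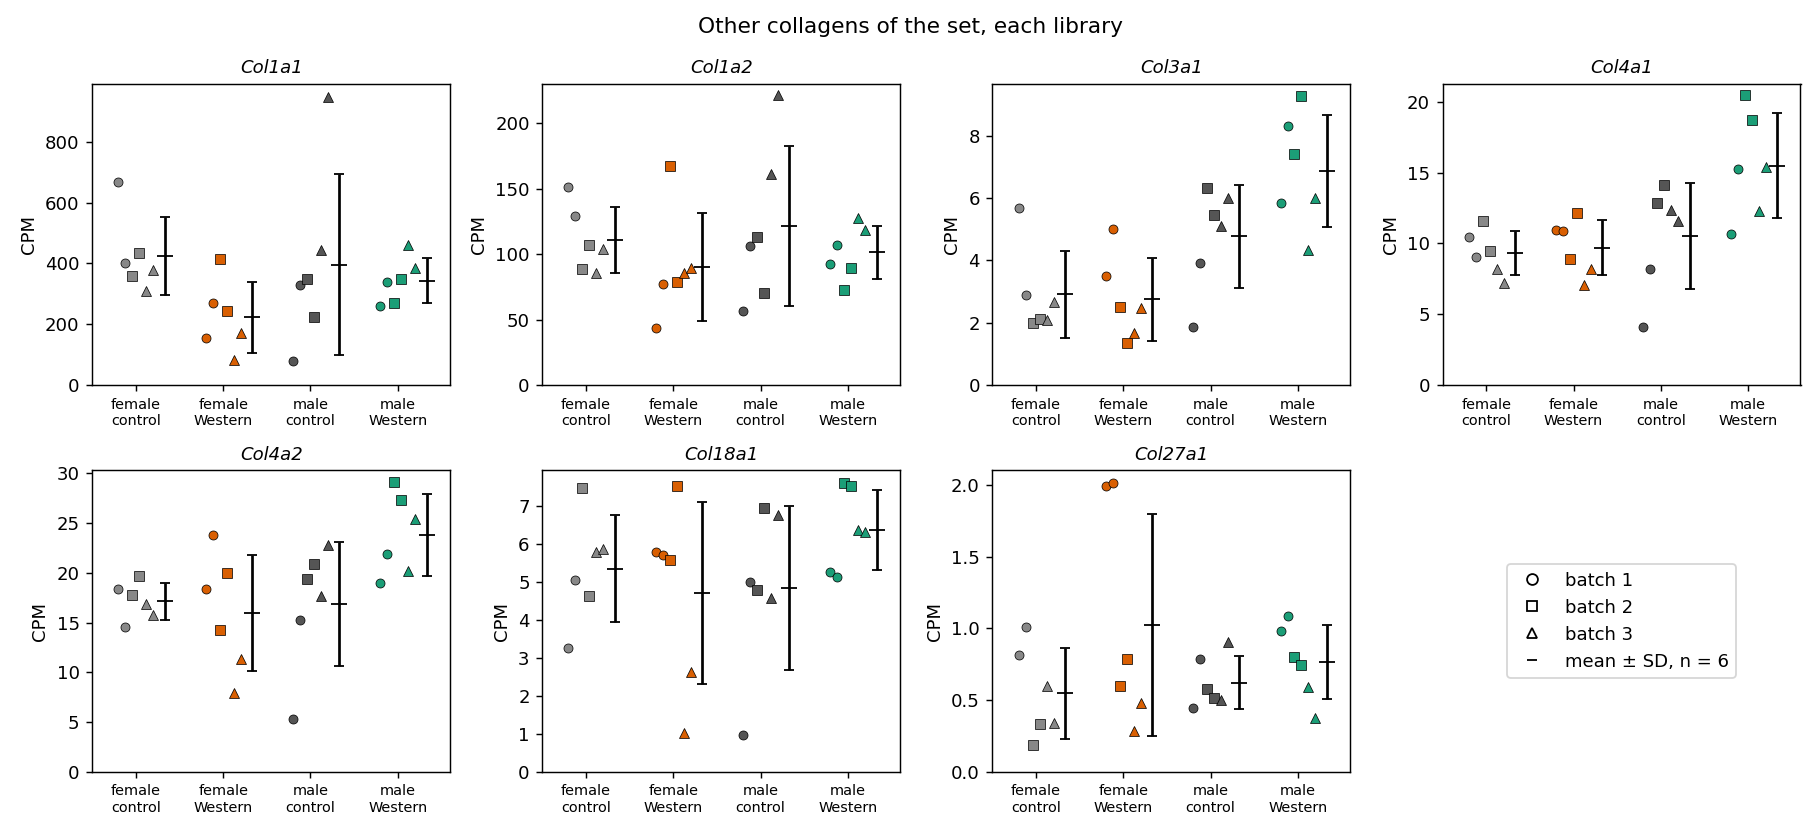
Level in CPM (vertical axes, linear, own scale for each gene) of the other 7 collagens in each library by group; symbols stand for batches and bars show mean ± SD of 6 libraries. Male libraries lie higher for Col3a1 (5.83 against 2.83 CPM on average), and control male 1 is the lowest control male for each of the 7 genes.

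Col3a1 (ENSMUSG00000026043, chromosome 1), which encodes the chain of type III collagen of reticular fibres, was higher in males. Over both diets it was 1.35, 2.50 and 5.69 CPM (lowest, median, highest) in 12 females and 1.86, 5.94 and 9.28 CPM in 12 males. The sexes overlapped at their edges, and most males lay above most females. The means were 2.83 ± 1.31 and 5.83 ± 1.98 CPM (SD, n = 12 each), a log2 difference of 1.08 ± 0.23 (SE), or 2.12-fold higher in males. By edgeR's quasi-likelihood test the adjusted p was 0.0423, and Col3a1 was the 1 collagen of the 8 called for sex, against 0.184% of all genes tested. The log2 difference was 0.08 within batch 1, 1.82 in batch 2 and 1.25 in batch 3, so it was near 0 in batch 1.

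The adjusted p lay near the threshold. Leaving out 1 library ended it for 16 of 24 libraries, and it was kept only without control female 1 or 2, Western-diet female 1, 2 or 6, control male 1 or 2, or Western-diet male 5. Over these single omissions edgeR's adjusted p ran from 0.00246 to 0.101 and the log2 difference from 0.98 to 1.22. The gene most like Col3a1 was Col2a1 (r = 0.885), the main collagen of cartilage, which averaged 6.02 and 4.98 CPM in control and Western-diet females and 7.34 and 13.7 CPM in control and Western-diet males. Its sex difference of 0.92 on the log2 scale did not pass (edgeR's adjusted p = 0.102). The summed chondrocyte markers spanned 1.81 to 5.45 CPM in females and 4.11 to 7.95 CPM in males, and the osteoblast markers 84.8 to 191 and 136 to 229 CPM. For the summed stromal markers these ranges were 100 to 652 and 191 to 380 CPM. The median r with Col3a1 was 0.56 over the chondrocyte, 0.45 over the stromal and 0.30 over the osteoblast markers. It was 0.06, 0.18 and 0.19 with group and batch means removed, which also removes the sex difference. The part of these cell types in the Col3a1 difference was not tested.

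For diet, Col3a1 overlapped between the groups of each sex. In females its lowest, median and highest levels were 1.98, 2.40 and 5.69 CPM with control and 1.35, 2.50 and 5.0 CPM with Western diet, a log2 fold change of -0.08. In males they were 1.86, 5.28 and 6.34 CPM and 4.33, 6.72 and 9.28 CPM, a log2 fold change of 0.47 (edgeR's adjusted p = 0.705). Neither Col5a1 (-0.36, male minus female, edgeR's adjusted p = 0.166) nor Col4a1 (0.40, 0.248) passed for sex, and the other 5 genes had adjusted p-values of 0.578 or more.

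Col4a1 (ENSMUSG00000031502) and Col4a2 (ENSMUSG00000031503), both on chromosome 8, encode the common chains of basement membrane type IV collagen. They are transcribed away from each other from starts 21 bases apart, and their annotated exons share 22 bases, in which their reads cannot be told apart. In females Col4a1 was 7.21, 9.24 and 11.6 CPM (lowest, median, highest) with control and 7.05, 9.92 and 12.1 CPM with Western diet, with wide overlap. In males it was 4.12, 12.0 and 14.1 CPM with control and 10.7, 15.3 and 20.5 CPM with Western diet. All 6 Western-diet males lay above the control mean, and 2 of 6 control males lay below every Western-diet male.

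The log2 fold change of Col4a1 with diet was 0.06 ± 0.20 (SE) in females and 0.56 ± 0.20 in males, 1.47-fold higher in Western-diet males with a 95% interval from 1.10 to 1.97. The male value did not pass over all genes (edgeR's adjusted p = 0.423). Within batches it was 1.13, 0.54 and 0.20, and without control male 1 it was 0.38. Col4a2 was 14.5, 17.3 and 19.7 CPM (lowest, median, highest) in control females and 7.95, 16.3 and 23.9 CPM in Western-diet females, a log2 fold change of -0.10. In males it was 5.26, 18.5 and 22.8 CPM with control and 18.9, 23.6 and 29.1 CPM with Western diet. Control male 1 was far below the rest, and the log2 fold change of 0.49 (edgeR's adjusted p = 0.605) was 0.29 without it. The summed endothelial markers overlapped between the male groups, at 144 to 211 CPM with control and 162 to 239 CPM with Western diet.

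Over the 24 libraries Col4a2 was the gene most like Col4a1 (r = 0.894), and Dock6 the gene most like Col4a2 (r = 0.913). With group and batch means removed, the type IV pair had r = 0.841 and rho = 0.688 (exact permutation p = 0.0239, adjusted p = 0.494 over 92 pairs). The r fell to 0.611 without the 2 libraries of the group and batch in which Col4a1 deviated most from its mean there. Within batches r was 0.916, 0.661 and 0.650.

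**Figure D4:**
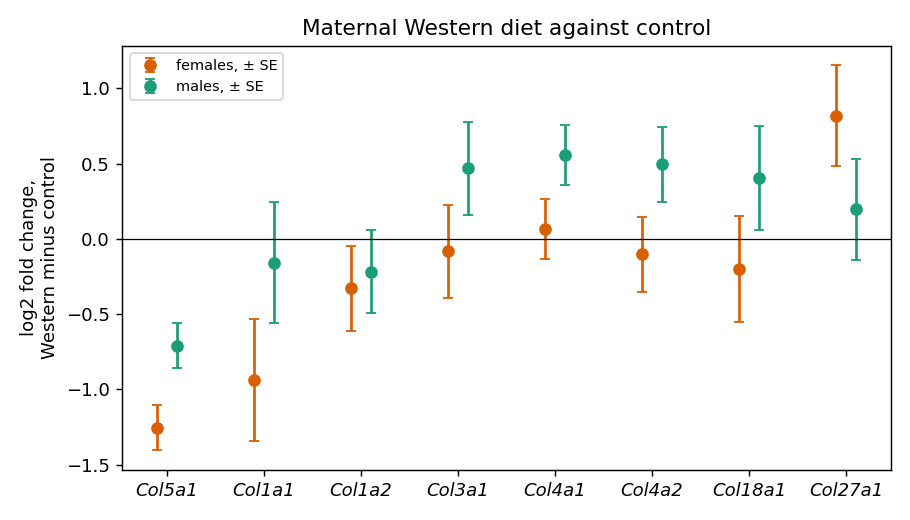
Log2 fold change of Western diet against control (vertical axis) for the 8 collagens in females (orange) and males (green); bars are standard errors from the fit over 24 libraries. Col5a1 lies below 0 in both sexes (-1.25 and -0.71), whereas Col3a1, Col4a1, Col4a2 and Col18a1 lie above 0 in males and near 0 in females.

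Col18a1 (ENSMUSG00000001435, chromosome 10), the basement membrane gene whose product releases endostatin, was 3.25, 5.42 and 7.47 CPM (lowest, median, highest) in control females and 1.01, 5.65 and 7.53 CPM in Western-diet females. In males it was 0.974, 4.89 and 6.95 CPM with control and 5.13, 6.34 and 7.61 CPM with Western diet. Control male 1 (35 counts) and Western-diet female 5 (39 counts) were the lowest libraries, and they were also the lowest for Col4a2, at 189 and 307 counts. The log2 fold change was -0.20 in females and 0.40 in males (edgeR's adjusted p = 0.776), and 0.18 in males without control male 1. In females it was 0.06 without Western-diet female 5 and 0.30 without batch 3. Fuk, an enzyme that recycles the sugar fucose, was the gene most like Col18a1 (r = 0.942).

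Col27a1 (ENSMUSG00000045672, chromosome 4) was the lowest of the set, at 9 to 101 counts a library. In control females it was 0.184, 0.469 and 1.01 CPM (lowest, median, highest), and in Western-diet females 0.285, 0.691 and 2.01 CPM. Both Western-diet females of batch 1 stood high, and the log2 fold change of 0.82 (1.76-fold) was 1.10, 1.31 and -0.26 within batches 1, 2 and 3. In males it was 0.445, 0.546 and 0.904 CPM with control and 0.375, 0.771 and 1.09 CPM with Western diet, a log2 fold change of 0.20 (edgeR's adjusted p = 0.895). The gene most like Col27a1 was Myo1e, a class I myosin (r = 0.771).

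With Western diet 6 of the 8 collagens had lower fitted values in females and 3 of 8 in males, while the median log2 fold change of all genes tested was 0.03 and 0.02. Some of these directions depended on single libraries or batches: leaving one out turned the sign for Col1a2, Col3a1, Col4a1, Col4a2 and Col18a1 in females and Col1a1, Col1a2 and Col27a1 in males. In females Col4a2 was 0.05 without Western-diet female 5 and Col3a1 0.17 without control female 1, and in males Col27a1 was near 0 without batch 1 or batch 2. The difference of the diet effects (male minus female) was 0.54 on the log2 scale for Col5a1, 0.60 for Col4a2 and 0.49 for Col4a1. It is given without a test, since it holds the female contrast. Over all genes tested edgeR called 0 for this difference, with 1633 genes at an unadjusted p under 0.05.

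Of the other collagens and the genes that make, cut, bind and sense collagen, 5 of 99 tested (5.05%) were called in females, near the 5.42% of all genes. Among 28 tested collagens outside the set, 1 rose and 1 fell in females, where 2.2% of all genes were called higher and 3.22% lower, and the median log2 fold change was -0.13. Col10a1, the collagen of hypertrophic cartilage, rose from 2.11 ± 0.598 to 4.98 ± 2.32 CPM (SD, n = 6 each), a log2 fold change of 1.18 (edgeR's adjusted p = 0.0230). Col22a1, a collagen of tissue junctions, fell from 0.817 to 0.296 CPM, a log2 fold change of -1.46 (edgeR's adjusted p = 0.0477). Col11a2, the most abundant of these genes at a mean of 9.15 CPM, had a log2 fold change of -0.25 (edgeR's adjusted p = 0.766). In males 0 of the 28 were called, and the median was 0.16.

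Of the enzymes that act on collagen, 2 fell in females, beside the 3.22% of all genes called lower. Bmp1, the protease that removes the C-terminal propeptide of fibrillar procollagens, fell from 14.7 to 7.72 CPM (log2 fold change -0.86, edgeR's adjusted p = 0.0135), and was the 1 gene called among 11 tested for processing and cross-linking (median -0.23). Mmp14, a membrane-bound collagen-cutting protease, fell from 13.8 ± 6.39 to 6.09 ± 1.40 CPM (SD, n = 6 each; log2 fold change -1.12, edgeR's adjusted p = 0.00141), and was the 1 gene called among 9 tested for breakdown (median 0.05). In males the log2 fold changes were -0.30 for Bmp1 and -0.43 for Mmp14, and neither passed (edgeR's adjusted p = 0.713 and 0.562). The inhibitor Timp3 was the most abundant breakdown gene at 15.97 CPM, with a log2 fold change of -0.05 in females.

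Among 10 tested partners of basement membranes, Lamc1, the laminin gamma chain, rose in females from 5.45 to 8.08 CPM (log2 fold change 0.58, edgeR's adjusted p = 0.0193), and Nid1, the most abundant at 7.21 CPM, did not pass (0.16). No gene was called in females among 19 of folding and modification (median 0.17), 10 receptors (median -0.04) and 12 fibril partners (median 0.10). Their most abundant genes were P4hb, a subunit of prolyl 4-hydroxylase (552 CPM), Adgrg1, the receptor GPR56 (923 CPM), and Sparc, a collagen-binding protein of bone (84.1 CPM). In edgeR 5 genes of these 7 lists were called in females, and 0 without batch 3. In males 0 were called in any list, with medians from -0.08 to 0.16.

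For sex, Lum, which encodes the collagen-binding proteoglycan lumican, was the only gene called of the 99 tested in the 7 lists, against 0.184% of all genes. It averaged 2.42 and 2.48 CPM in control and Western-diet females and 4.77 and 4.09 CPM in control and Western-diet males, a log2 difference of 0.85, or 1.80-fold higher in males (edgeR's adjusted p = 0.0423). Leaving out 1 library left 0 list genes called for 16 of 24 libraries, and over all alternatives 0 to 11 were called. Between batches 5 of the 28 other collagens differed, and 12 of 99 list genes (12.1%), below the 24.2% of all genes. Among them were Col19a1 (1.22 on the log2 scale, edgeR's adjusted p = 0.00155), Col6a3 (1.13, 0.0120) and Col14a1 (1.12, 0.00515).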

How the data were processed

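Each library has 1 deposited file of raw gene counts. The authors made the counts on build GRCm39 with cutadapt, STAR and HTSeq, per the submitters' processing notes, which also list FastQC and DESeq2. Versions, annotation release and strand setting are not given in the sources. Per the labels' protocols, libraries were made with a NEBNext low-input kit from RNA of integrity above 8.0. The kit does not mark strand, so reads of antisense genes (113 exon bases of Gm13372 in Col5a1) cannot be told apart. HTSeq's closing lines (reads in no gene) made up 31.0 to 39.3% of a library and were left out.

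Symbols, exon lengths and overlaps came from GENCODE vM21 (GRCm38), which matched 52081 of 55414 identifiers. Promoter sequences are RefSeq's (GRCm38.p6); 7 of the 8 members matched. The counts were tested in edgeR 4.0.16 (R 4.3.3): filterByExpr (19616 genes left, all 8 members among them), TMM scaling, and a robust quasi-likelihood fit of group and batch to all 24 libraries. P-values are two-sided and Benjamini-Hochberg adjusted over all genes tested within a comparison, with a threshold of 0.05. CPM use TMM-corrected library sizes. Within-batch differences and correlations use log2 CPM with a prior count of 2, and a correlation was tested by an exact permutation test that swaps the 2 libraries of a group and batch (4096 relabellings). Intervals are 95% and use 18 residual degrees of freedom. No library repeated another: each pair differed by more than counting error (chi-square of at least 19.0 times its degrees of freedom).

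The members and lists were chosen with earlier results of these data known. Besides the members, the rule names the gene most alike to each (5 for Col5a1, of those at a mean of at least 1 CPM), each list's most abundant gene with up to 4 called ones, and abundant or near-absent markers. A gene that the rule takes is not reported here. Alternatives were RLE size factors, no filter, a stricter filter (CPM above 1 in 12 libraries), DESeq2 1.42.0, limma-voom (limma 3.58.1), a fit without the batch term, one with the replicate number as a block, one of the compared groups alone, and leaving out each batch, each library or both control females of batch 3. The fit was tested on simulated counts without a batch effect. At true folds of 1.5, 2, 3 and 4 (50 genes each), 24, 64, 86 and 96% were recovered for diet in males. False calls numbered 5.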

Additional observations from a re-analysis of the deposited data

Results flagged for a closer look

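Of 32 combinations of a collagen and a group, 3 held 1 library that stood far from the other 5. The limit used flags about 1 in 20 for independent, normally distributed values. These combinations share libraries and each spans 3 batches, so that rate need not hold here. Control female 1 (batch 1) had 669 CPM of Col1a1, with 433 CPM in the next library. The same library had 5.69 CPM of Col3a1, with 2.89 CPM in the next. Western-diet female 3 (batch 2) had 167 CPM of Col1a2, with 89.1 CPM in the next. Without control female 1 the log2 fold change of diet in females was -0.70 for Col1a1, in place of -0.94, and 0.17 for Col3a1, in place of -0.08.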

How the results depend on the processing

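Col5a1 was lower with Western diet in males under each of 36 alternatives (log2 fold change -0.86 to -0.50, adjusted p 0.00347 to 0.999). It passed without a filter on low counts (-0.73, adjusted p = 0.00347), in DESeq2 (-0.73, 0.00349) and in limma-voom (-0.73, 0.0188), where 1 collagen was called instead of 0. In females its log2 fold change ran from -1.48 to -1.15.

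Col3a1 remained higher in males under 35 alternatives and passed in 14. It did not pass without the batch term (1.02, adjusted p = 0.158), with the replicate block (1.08, 0.0772), without batch 2 (0.69, 0.544), without batch 3 (0.94, 0.278) or without both control females of batch 3 (1.05, 0.182), where 0 collagens were called. Without 1 library it ran from 0.98 to 1.22, and 0 to 1 collagens were called. Without batch 1, 2 were called, the second being Col4a1 (0.68, adjusted p = 0.00804). For batch, 1 collagen instead of 2 was called with the stricter filter, which removes Col27a1, and 3 without a filter (Col1a2 added, adjusted p = 0.0210) and in limma-voom (Col4a1 added, 0.0177). The cause of these changes was not tested, apart from that filter.

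Over all genes, calls for diet in males went from 2 to 380 without a filter, 99 in DESeq2, 112 in limma-voom and 7 with the stricter filter, to 1 with the replicate block or the male groups alone, and to 0 without the batch term. Calls for sex went from 36 to 967, 257 and 173 with no filter, DESeq2 and limma-voom, to 124 without batch 1, and to 12 without the batch term. Calls for diet in females went from 1064 to 2023 without a filter, 1805 in DESeq2, 1839 without batch 1, 404 without the batch term, 358 with the female groups alone, and 297, 146 and 154 without batch 2, batch 3 or its control females. Calls for batch went from 4753 to 2946 without those females. Leaving out 1 library gave 504 to 1386 calls for diet in females (lowest without control female 5 or 6 or Western-diet female 5), 1 to 13 for diet in males (highest without Western-diet male 4) and 22 to 66 for sex (lowest without control male 3 or 4 or control female 6, highest without control female 2 or Western-diet female 1 or 6).

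The replicate numbers follow batch, so libraries with the same number share a batch. With only group means removed, 29 of 72 best matches had the same number. Beyond group and batch, libraries with the same number correlated at -0.17 to 0.18 (4 of 36 pairs over 0.1). There the 2 libraries of a group and batch mirror each other, so each value occurs for both numbers. Whether same-numbered libraries share more than a batch therefore cannot be told. Depth limits Col27a1 most, at 9 counts in its lowest library.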
